A study of Homo sapiens with 12 samples.

Results

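The Hsp90 machine of MDA-MB-231 cells was followed across 4 conditions through 10 genes: the cytosolic Hsp90 isoforms HSP90AA1 and HSP90AB1, the co-chaperones CDC37, PTGES3, STIP1, FKBP4, AHSA1, CHORDC1 and CACYBP, and the heat shock factor gene HSF1. The genes were chosen for their place in this machine, which the study's title names, with earlier results of these data known. They were read through every probe set annotated to that 1 symbol, with the brightest as the main one. Of the 10 genes 9 had such a probe set, 19 probe sets in all, among 11963 genes measured; AHSA1, the activator of the Hsp90 ATPase, was not analysed here, because no probe set carried that 1 symbol. MDA-MB-231 is an established human line of triple-negative breast cancer, and a group was 3 arrays of cells kept for 24 h with manassantin, with rotenone, with digoxin or with the vehicle DMSO. Manassantin, named manassantin A in the design text, is a plant lignan, rotenone blocks respiratory complex I, and digoxin, a cardiac glycoside, inhibits the sodium pump. The design text names digitoxin where the sample titles name digoxin, so which of these glycosides the cells received is not settled, and the name in the titles is used. No source used here gives the doses or the oxygen level, and none says whether the replicate arrays were separate cultures, so p-values reflect the spread between these particular samples and that spread may be technical.

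Hsp90 is an abundant ATP-dependent chaperone that finishes the folding of kinases, steroid receptors and other client proteins, many of which drive the growth of breast cancer cells. Co-chaperones bind it in turn: some bring clients, some slow or speed its ATP cycle, and some link it to Hsp70. HSF1 is the transcription factor of the heat shock response. Hsp90 complexes hold it inactive in unstressed cells, and once released it binds repeats of a short element in the promoters of chaperone genes, HSP90AA1 among them. Transcript levels, which these arrays measured, do not report the activity of Hsp90 or of HSF1.

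To show where the heat shock element stands in these genes, the promoters of HSP90AA1, HSP90AB1, CHORDC1 and PTGES3 are printed here. The first 3 hold the element. PTGES3 is printed because its transcript was lower with digoxin beside those of the Hsp90 isoforms while its window holds no match. The transcript of CHORDC1, which holds the element, differed from DMSO by a log2 value of only 0.022 with digoxin. The sequences are from RefSeq on the build GRCh38.p14 and run from 250 bases before to 50 bases after an annotated start. HSP90AA1 and HSP90AB1 have other annotated starts, whose windows are not printed. HSP90AA1 is shown at chr14:102086995-102087294 on the minus strand, HSP90AB1 at chr6:44247693-44247992 on the plus strand, CHORDC1 at chr11:90223000-90223299 on the minus strand and PTGES3 at chr12:56688235-56688534 on the minus strand. Capitals mark every match to 2 units of the element, GAANNTTC or TTCNNGAA, each of which reads the same on both strands.
HSP90AA1: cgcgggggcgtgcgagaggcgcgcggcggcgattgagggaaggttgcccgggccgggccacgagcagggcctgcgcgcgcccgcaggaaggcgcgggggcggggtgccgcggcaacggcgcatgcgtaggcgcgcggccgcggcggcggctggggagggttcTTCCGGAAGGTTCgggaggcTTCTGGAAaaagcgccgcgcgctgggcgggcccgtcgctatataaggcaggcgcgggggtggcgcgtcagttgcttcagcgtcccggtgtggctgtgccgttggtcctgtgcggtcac
HSP90AB1: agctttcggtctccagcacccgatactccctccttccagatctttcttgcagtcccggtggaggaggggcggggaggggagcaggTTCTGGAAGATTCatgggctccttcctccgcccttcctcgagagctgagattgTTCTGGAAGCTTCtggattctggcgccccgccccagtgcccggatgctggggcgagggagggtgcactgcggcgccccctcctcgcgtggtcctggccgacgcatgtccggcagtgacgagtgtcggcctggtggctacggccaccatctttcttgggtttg
CHORDC1: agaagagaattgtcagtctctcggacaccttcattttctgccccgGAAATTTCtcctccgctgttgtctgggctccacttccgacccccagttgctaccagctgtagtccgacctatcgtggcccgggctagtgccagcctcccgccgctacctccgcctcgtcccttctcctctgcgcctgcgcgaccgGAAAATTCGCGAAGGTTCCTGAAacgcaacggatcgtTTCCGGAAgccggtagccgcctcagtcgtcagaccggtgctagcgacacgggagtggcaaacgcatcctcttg
PTGES3: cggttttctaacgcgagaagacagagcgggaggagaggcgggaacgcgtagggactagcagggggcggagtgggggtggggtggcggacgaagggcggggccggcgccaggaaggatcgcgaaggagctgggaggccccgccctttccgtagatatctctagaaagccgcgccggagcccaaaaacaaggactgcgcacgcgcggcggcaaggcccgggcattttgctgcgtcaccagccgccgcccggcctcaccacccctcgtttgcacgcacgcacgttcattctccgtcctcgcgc

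A run of 3 alternating units, in which a 2-unit match is carried on by NN and a further unit, was searched on both strands, and each such run holds 2 overlapping 2-unit matches. It occurred in 172 of 35116 promoter windows (0.49%), or in at least 1 window of 166 of 27305 genes (0.608%). Of the 8 Hsp90 machine genes with a window, 14 windows in all, 3 held it. Counting from the start, with bases before it negative, it lay at positions -88 to -76 in the window of HSP90AA1 shown above. HSP90AB1 had it in the window shown above, at -165 to -153 and again at -112 to -100. The other windows of HSP90AB1, which lie upstream of the one shown, held no match of 2 or 3 units. The other window of HSP90AA1 held none either. In CHORDC1 3 overlapping runs spanned -60 to -38. The 2-unit match is common, in 13.5% of all windows and 16.2% of genes, and STIP1 was the other gene of the machine with one, at positions 13 to 20 after a start. No match was found in the windows used for CDC37, PTGES3, AHSA1 and CACYBP, and those of HSF1 and FKBP4 were not used here. A match describes letters in a window and is not a measured binding site.

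Across all arrays the deposited values were log2 intensities with array medians from 5.88 to 5.995. The line's mesenchymal markers VIM, CD44, CAV1, AXL, MSN and LGALS1 stood at or above the 97.3 percentile of genes, but SPARC was near the low end of the arrays, at a log2 level of 3.85. Of 9 luminal and epithelial markers PGR, CDH1, FOXA1 and ESRP1 were at or below the 12.2 percentile and ESR1 at the 45.6 percentile, whereas KRT19 stood at the 92.3 and ERBB2, GATA3 and EPCAM at the 66.5 to 68.2 percentiles. The 18S ribosomal control averaged 9.83 ± 0.481 with manassantin, 10.01 ± 0.152 with rotenone, 10.08 ± 0.163 with digoxin and 10.40 ± 0.315 with DMSO (log2, SD, n = 3 arrays each). The 3' minus 5' difference of the dap spike-in, a measure of how far the labelled target is biased to the 3' end, was 3.07 ± 0.493 with manassantin, 2.68 ± 0.217 with rotenone, 2.75 ± 0.135 with digoxin and 2.49 ± 0.394 with DMSO. The arrays of each compound overlapped with those of DMSO in both controls, and no test of these differences was run. The 18S control was also used as a covariate.

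Most genes of the machine were lower with digoxin, and few differences were called with the other compounds. Differences are given as log2 values, the first group named minus the other, with the standard error (SE) of limma's fit, and a gene was called at a Benjamini-Hochberg adjusted p under 0.05 over all 11963 genes. The comparisons with DMSO share the same 3 DMSO arrays. With digoxin 6 of the 9 genes were called, 5 lower and 1 higher, where 54.8% of all genes were called, 26.9% lower and 28% higher, and the median of the 9 was -0.17 against 0.065 over all genes. With rotenone 1 gene was called, higher, where 6.94% of all genes were called and 3.55% were called higher, and the median was 0.079 against 0.012 over all genes. With manassantin 0 were called by limma where 0.97% of all genes were; 1 of the 9 had an unadjusted p under 0.05, as had 1896 of all genes, and the median was -0.028 against 0.0069 over all genes. The 3 arrays of a compound and the 3 of DMSO did not overlap for 3 genes with manassantin, 5 with rotenone and 7 with digoxin, where 22.4%, 31.2% and 61.9% of all genes did not overlap. Each value is of a bulk extract, in which fewer cells with a transcript and less of it per cell cannot be told apart.

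**Figure D1:**
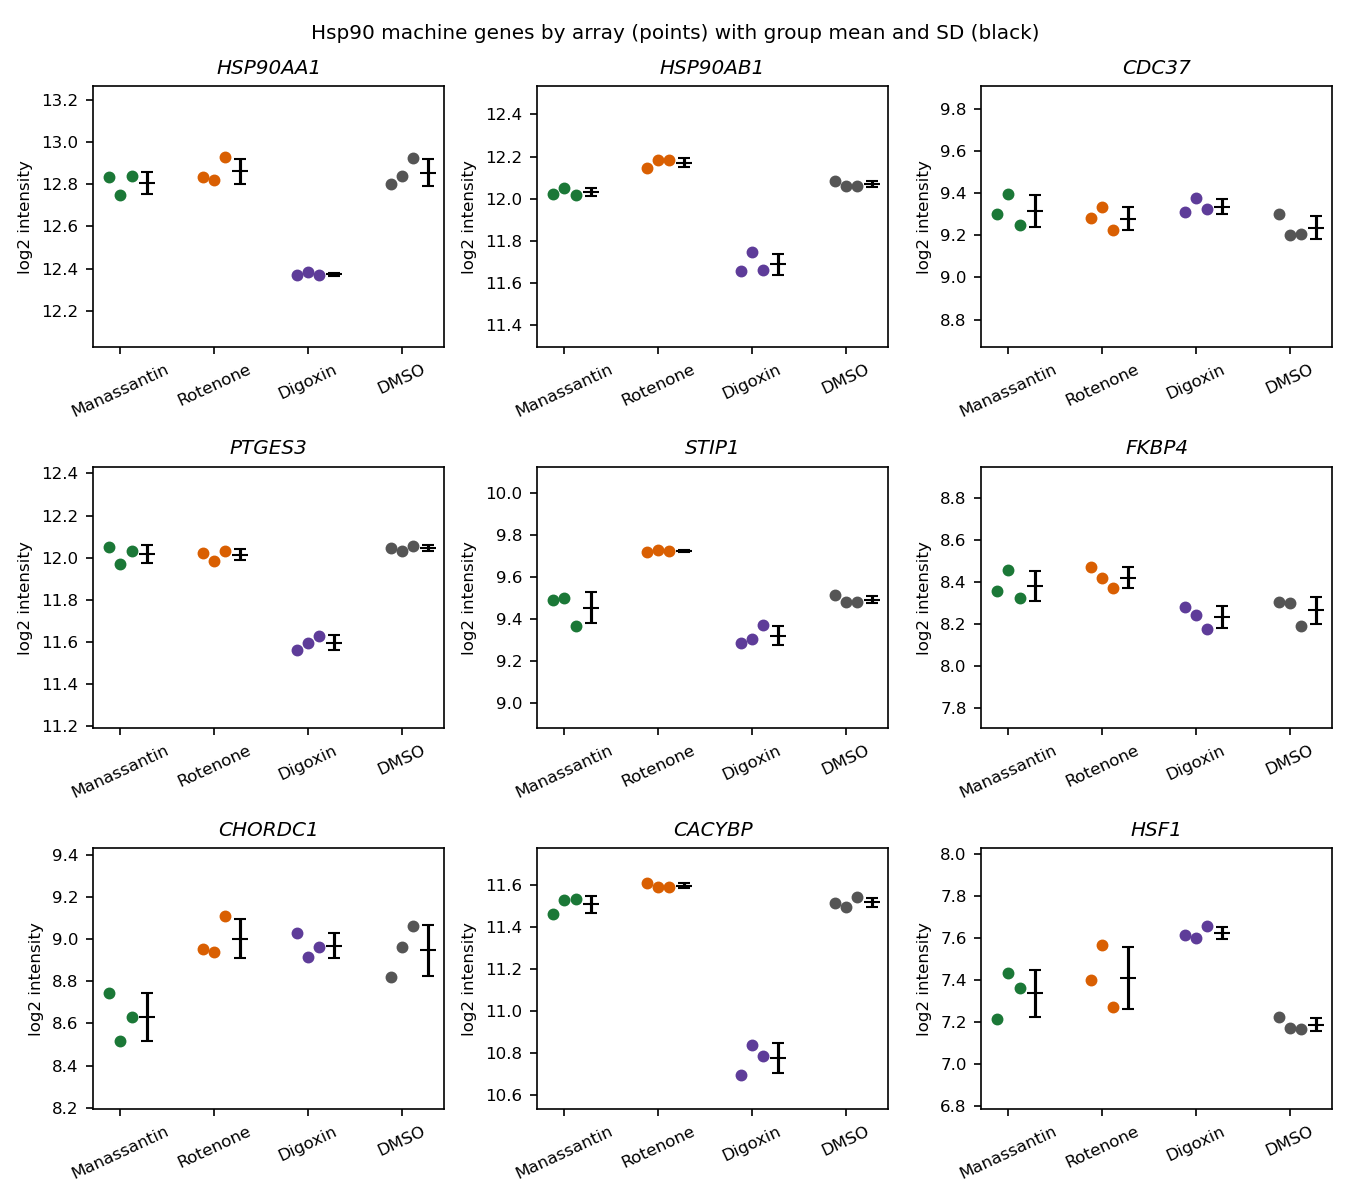
Log2 intensity of the 9 measured genes on each array, 1 panel per gene with an axis of the same span but its own level, so heights are not compared between panels. Points are arrays, and the black bars are the group mean and SD over 3 arrays; the digoxin points lie apart below DMSO for HSP90AA1, HSP90AB1, PTGES3, STIP1 and CACYBP and above it for HSF1, while for CHORDC1 the manassantin points are the low ones.

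HSP90AA1, the stress-inducible Hsp90 isoform, was lower with digoxin and differed little between the other groups. Its log2 intensity was 12.83, 12.75 and 12.84 with manassantin, 12.84, 12.82 and 12.93 with rotenone and 12.37, 12.38 and 12.37 with digoxin, against 12.80, 12.84 and 12.92 with DMSO. All 3 digoxin arrays lay below every other array, and the other groups overlapped. With digoxin it fell by 0.48 (SE 0.051, 0.716 of the DMSO level, adjusted p = 5.757e-06). Against DMSO, manassantin gave -0.047 (95% confidence interval -0.16 to 0.064, adjusted p = 0.709) and rotenone 0.0070 (-0.10 to 0.12, adjusted p = 0.959). The gene's other 3 probe sets fell too with digoxin, by 0.65, 0.37 and 0.87, all called, and lay between -0.14 and 0.00 with manassantin, none called.

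HSP90AB1, the constitutive isoform, followed the same course with digoxin. It stood at 12.02, 12.05 and 12.02 with manassantin, 12.15, 12.18 and 12.18 with rotenone and 11.66, 11.75 and 11.66 with digoxin, against 12.09, 12.06 and 12.06 with DMSO. No pair of these groups overlapped, and the order from high to low was rotenone, DMSO, manassantin and digoxin, although manassantin and DMSO differed by less than the SE of the difference. Digoxin lowered it by 0.38 against DMSO (SE 0.043, adjusted p = 1.049e-05), and its other probe set fell by 0.46. With rotenone it was 0.10 above DMSO (0.0091 to 0.20, unadjusted p = 0.0342, adjusted p = 0.192), and the other probe set gave -0.0038. With manassantin it was -0.037 (-0.13 to 0.057, adjusted p = 0.734), and the other probe set gave -0.10 (adjusted p = 0.398). On that other probe set the manassantin and the rotenone arrays overlapped with those of DMSO.

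PTGES3, the p23 co-chaperone that stabilises the closed ATP-bound form of Hsp90, gave nearly equal values outside the digoxin group. The arrays read 12.05, 11.97 and 12.03 with manassantin, 12.02, 11.98 and 12.03 with rotenone and 11.56, 11.60 and 11.63 with digoxin, against 12.05, 12.03 and 12.06 with DMSO. It fell by 0.45 with digoxin (SE 0.043, adjusted p = 2.58e-06), with no overlap between digoxin and any other group. The differences were -0.028 with manassantin (-0.12 to 0.067) and -0.032 with rotenone (-0.13 to 0.063), neither called.

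CACYBP binds S100 proteins and the ubiquitin ligase SIAH1 and carries a domain like that of the Hsp90 co-chaperone SGT1. Another probe set of HSP90AA1 fell further with digoxin, by 0.87, but by main probe sets CACYBP had the largest digoxin difference of the 9 genes. Its values were 11.46, 11.53 and 11.53 with manassantin, 11.61, 11.59 and 11.59 with rotenone and 10.70, 10.84 and 10.79 with digoxin, against 11.51, 11.50 and 11.54 with DMSO. The digoxin arrays lay apart below all others, and the 3 rotenone arrays lay just above those of DMSO. With digoxin the gene fell by 0.74 (SE 0.048, 0.598 of the DMSO level, adjusted p = 7.654e-08). All 4 of its probe sets were called lower, the others by 0.79, 0.74 and 0.47, the last of these dim, with a mean under the 40th percentile of genes. Rotenone gave 0.079 (adjusted p = 0.386) and manassantin -0.0096 (adjusted p = 0.947).

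**Figure D2:**
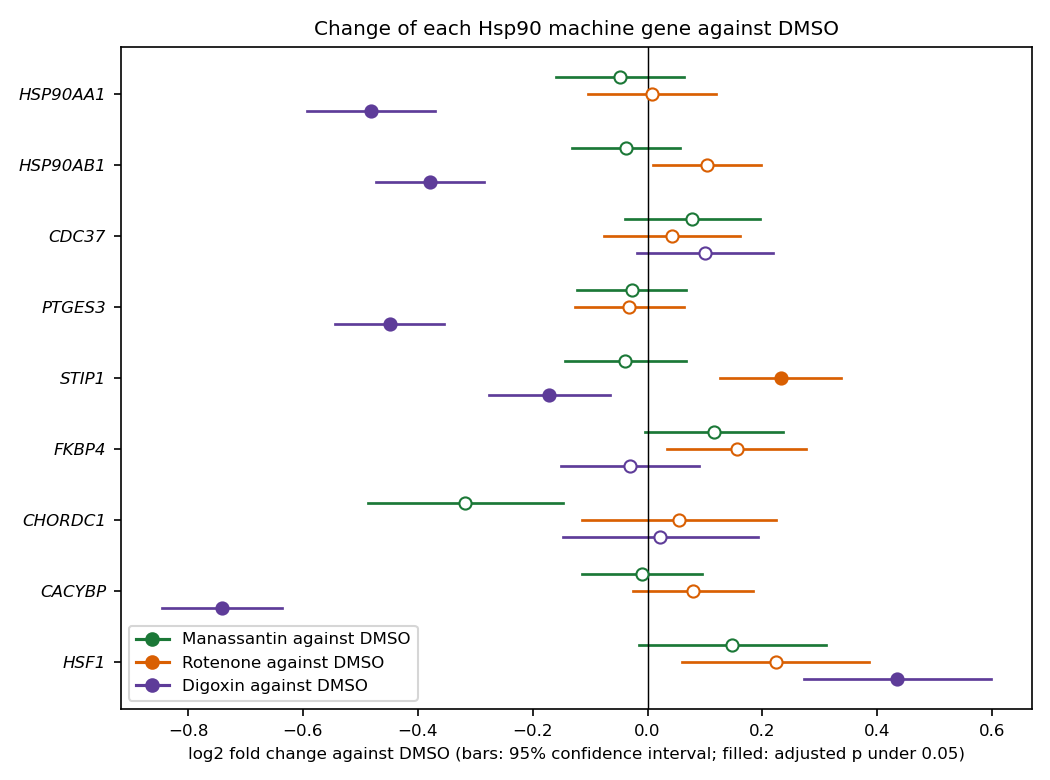
Log2 fold change of each gene against DMSO (horizontal axis) with its 95% confidence interval, for manassantin, rotenone and digoxin from top to bottom within a gene; filled points have an adjusted p under 0.05. Digoxin gives the 5 filled points left of 0 and HSF1 at 0.43 right of it, rotenone gives 1 filled point, STIP1 at 0.23, and manassantin gives none, with CHORDC1 at -0.32 the farthest from 0.

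STIP1, also called HOP, the adaptor that joins Hsp70 to Hsp90, was called in opposite directions by rotenone and digoxin. Its arrays read 9.49, 9.50 and 9.37 with manassantin, 9.72, 9.73 and 9.72 with rotenone and 9.29, 9.30 and 9.37 with digoxin, against 9.51, 9.48 and 9.48 with DMSO. Rotenone lay above and digoxin below DMSO without overlap, while 2 manassantin arrays fell within the DMSO range and 1 below it. With rotenone it rose by 0.23 (SE 0.048, 1.17-fold, adjusted p = 0.0150), the only one of the 9 genes called in that comparison, and with digoxin it fell by 0.17 (adjusted p = 0.00981). The difference between rotenone and digoxin themselves was 0.40 (0.30 to 0.51, adjusted p = 1.839e-05). The gene's other probe set was called in none of these, at 0.076 with rotenone and -0.16 with digoxin, with an SE of 0.167.

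The rotenone call of STIP1 held in 8 of 10 other settings and in 2 of 6 fits that left out 1 array. It was not reached with the 18S control as a covariate (0.19, adjusted p = 0.0834), nor with the mean of both probe sets (0.15, adjusted p = 0.410), nor without rotenone replicate 1 or 2 or without DMSO replicate 2 or 3 (0.23 each, adjusted p = 0.0506 to 0.0619). The digoxin call was not reached with the mean of both probe sets (-0.17, adjusted p = 0.156) or with each array centred on its median (-0.084, adjusted p = 0.154).

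FKBP4, the immunophilin FKBP52 that serves steroid receptor complexes, was called in no comparison with DMSO. It read 8.36, 8.46 and 8.33 with manassantin, 8.47, 8.42 and 8.37 with rotenone and 8.28, 8.24 and 8.18 with digoxin, against 8.30, 8.30 and 8.19 with DMSO. All manassantin and rotenone arrays lay above those of DMSO, by 0.12 (-0.0052 to 0.24, adjusted p = 0.340) and 0.16 (0.035 to 0.28, adjusted p = 0.123). With digoxin it differed by -0.031 (adjusted p = 0.653). The gene's other probe set gave 0.17 with manassantin, 0.090 with rotenone and -0.026 with digoxin, none called. On that probe set the manassantin and the rotenone arrays overlapped with those of DMSO. CDC37, which brings kinases to Hsp90, was called in none of the 6 comparisons. It read 9.30, 9.396 and 9.25 with manassantin, 9.28, 9.33 and 9.22 with rotenone and 9.31, 9.38 and 9.32 with digoxin, against 9.30, 9.20 and 9.21 with DMSO, so the first 2 groups overlapped with DMSO and digoxin lay just above it. Its differences were 0.078, 0.042 and 0.10 for manassantin, rotenone and digoxin (intervals -0.040 to 0.20, -0.076 to 0.16 and -0.018 to 0.22). With arrays centred on their medians the digoxin difference was 0.19 and called (adjusted p = 0.0134).

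CHORDC1, a zinc-binding Hsp90 partner also called CHP-1 or morgana, was the 1 gene of the 9 with every manassantin array below every other array. It read 8.74, 8.52 and 8.63 with manassantin, 8.96, 8.94 and 9.11 with rotenone and 9.03, 8.92 and 8.96 with digoxin, against 8.82, 8.96 and 9.06 with DMSO. The groups other than manassantin overlapped with each other. Digoxin differed from DMSO by 0.022 (-0.15 to 0.19, adjusted p = 0.821) and rotenone by 0.055 (adjusted p = 0.754), neither called. Between compounds the difference was called: manassantin was lower than rotenone by a log2 difference of -0.37 (SE 0.078, 0.773-fold, adjusted p = 0.0135) and lower than digoxin by -0.34 (0.790-fold, adjusted p = 0.00264). Against DMSO the difference was -0.32 (-0.49 to -0.15, unadjusted p = 0.00158, adjusted p = 0.0751) and was not called. Over the 16 alternative settings this last value ranged from -0.38 to -0.26 with adjusted p from 0.00852 to 0.479, and it passed in 3 of them; the highest p came with the 18S control as a covariate, where the difference was -0.29.

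The call between manassantin and rotenone was lost without rotenone replicate 3 (-0.32, adjusted p = 0.0606), and that between manassantin and digoxin passed in all 16 settings. CHORDC1 had 1 probe set, so no other reading of the gene stood beside it. The 18S control was lower with manassantin than with DMSO on average, and the dap difference higher, as given above.

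HSF1, the factor itself, was higher with digoxin while the Hsp90 genes were lower. Its arrays read 7.22, 7.43 and 7.36 with manassantin, 7.40, 7.56 and 7.27 with rotenone and 7.61, 7.60 and 7.66 with digoxin, against 7.23, 7.17 and 7.17 with DMSO. The digoxin arrays were above all others, the rotenone arrays above those of DMSO, and manassantin overlapped with DMSO through 1 array. With digoxin it rose by 0.43 (SE 0.074, 1.35-fold, adjusted p = 0.000323), and its other probe set, a dim one, rose by 0.53. With rotenone it was 0.22 above DMSO (0.060 to 0.39, unadjusted p = 0.0114, adjusted p = 0.1001), where the other probe set gave 0.31 (adjusted p = 0.0548). This rotenone difference passed in 3 of 16 settings, with adjusted p from 0.0425 to 0.334 over the 16. With manassantin HSF1 was 0.15 above DMSO (-0.015 to 0.31, adjusted p = 0.366).

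**Figure D3:**
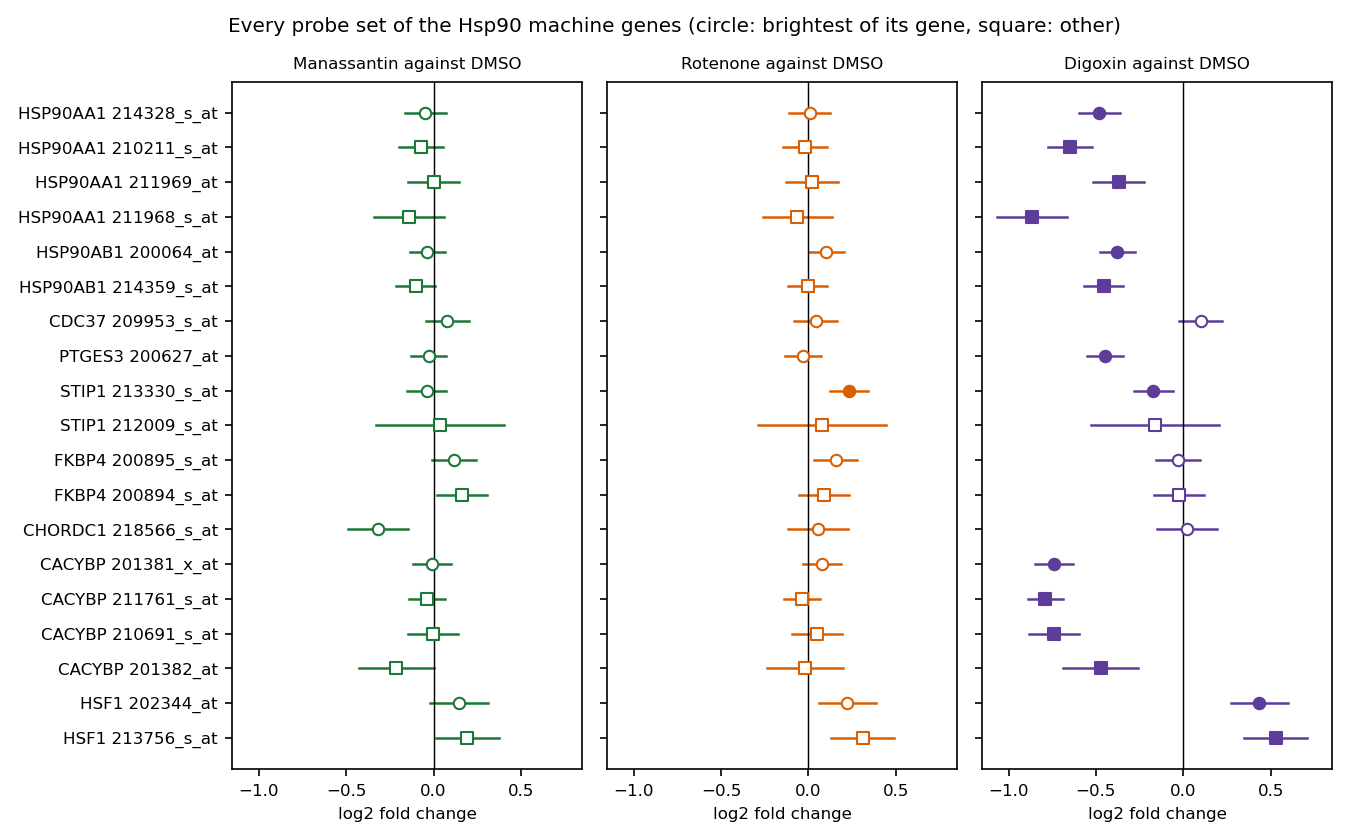
Log2 fold change against DMSO of all 19 probe sets of the 9 genes, named by gene and array identifier, with 95% confidence intervals from a fit over all probe sets; circles are the brightest probe set of a gene, squares the others, and filled symbols have an adjusted p under 0.05. With digoxin every probe set of HSP90AA1, HSP90AB1 and CACYBP is filled left of 0 and both of HSF1 right of it, whereas STIP1 has 1 filled and 1 open symbol.

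Set directly against each other, the compounds separated most genes of the machine wherever digoxin was 1 of the pair. Between manassantin and digoxin 8 of 9 genes were called, 6 higher with manassantin and 2 lower, CHORDC1 and HSF1, where 56.7% of all genes were called, 28.1% higher and 28.6% lower. HSP90AA1 differed by 0.43 (1.35-fold), HSP90AB1 by 0.34, PTGES3 by 0.42 and CACYBP by 0.73 (1.66-fold). HSF1 stood at -0.29 (-0.45 to -0.13, adjusted p = 0.00582), lower with manassantin. STIP1 at 0.13 (adjusted p = 0.0338) and FKBP4 at 0.15 (adjusted p = 0.0398) passed in this comparison in 7 and 6 of 16 settings.

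Between rotenone and digoxin 7 of 9 were called, 6 higher with rotenone and HSF1 lower, where 50.5% of all genes were called, 26.3% higher and 24.2% lower. CACYBP differed by 0.82 (1.77-fold), HSP90AA1 by 0.49, HSP90AB1 by 0.48 and PTGES3 by 0.42. FKBP4 differed by 0.19 (adjusted p = 0.0140), a call kept in 12 of 16 settings. It was lost with median centring (0.10, adjusted p = 0.140), with quantile normalization (0.14, adjusted p = 0.0616) and without rotenone replicate 1 or digoxin replicate 3 (0.16 each). The other probe set of FKBP4 gave 0.12 (adjusted p = 0.173), not called. Between manassantin and digoxin that probe set gave 0.19 (adjusted p = 0.0287), called. HSF1 stood at -0.21 (adjusted p = 0.0317), a call kept in 10 of 16 settings and in only 1 of the 6 that left out an array, that without rotenone replicate 2; leaving out rotenone replicate 3 gave -0.14 (adjusted p = 0.140).

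Between manassantin and rotenone 2 of 9 were called, both lower with manassantin, where 8.47% of all genes were called and 3.78% were called lower. These were CHORDC1, described above, and STIP1, at -0.27 (SE 0.048, adjusted p = 0.00630), which passed in 15 of 16 settings but not with the mean of its probe sets. HSP90AB1 differed by -0.14 (-0.23 to -0.046, adjusted p = 0.0668), with no overlap between the groups, and passed in 3 of 16 settings (adjusted p = 0.00251 to 0.0364 in those). HSP90AA1 differed by -0.054 (-0.17 to 0.057, adjusted p = 0.580). PTGES3 differed by 0.0037 (-0.091 to 0.098).

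The counts with digoxin depended on how the arrays were scaled. As deposited, 28% of all genes were called higher with digoxin than DMSO and 26.9% lower; with each array centred on its median these shares were 42% and 22.4%, and the median over all genes was 0.15 in place of 0.065. Of the 9 genes 2 were then higher and 4 lower, with CDC37 gained and STIP1 lost, while HSP90AA1, HSP90AB1, PTGES3 and CACYBP stayed called lower and HSF1 higher in all 16 settings. For manassantin against digoxin the centred shares were 23.4% higher and 42.2% lower with 4 and 2 of the 9 genes, and for rotenone against digoxin 22% and 37.6% with 5 and 2. Some markers of the line moved with digoxin as well, where 26.9% of all genes were called lower and 28% higher. Of its 7 mesenchymal markers 4 were lower and 0 higher, their mean log2 level being 10.90 to 11.03 over the digoxin arrays against 11.14 to 11.18 over those of DMSO. Of 9 luminal and epithelial markers, set beside the same shares of all genes, 3 were lower and 2 higher. The lower ones were KRT19, by a log2 difference of -1.24, ERBB2 (-0.48) and EPCAM (-0.44). The mean level of the 9 markers was 5.76 to 5.79 with digoxin and 5.89 to 5.92 with DMSO. Their part in the result was not tested.

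Other Hsp90 paralogs and co-chaperones were measured for 27 of 32 listed genes. This list and those that follow were chosen with earlier results of these data known. With manassantin limma called 0, where it called 0.97% of all genes. An unadjusted p under 0.05 was found for 7, as for 1896 of all 11963 genes. The median was -0.015, with values from -0.32 to 0.20. With rotenone 1 was higher, where 3.55% of all genes were called higher. It was FLCN, the tumour suppressor folliculin, a client whose FNIP partners act as co-chaperones (0.52, adjusted p = 0.00263). With digoxin 5 were higher and 6 lower, with a median of -0.055, where 28% of all genes were called higher and 26.9% lower. With arrays centred on their medians 10 were higher and 6 lower, against 42% and 22.4% of all genes. The leading ones were RPAP3, a scaffold of the R2TP complex that works with Hsp90 (-0.85, adjusted p = 1.05e-06), CDC37L1, a relative of CDC37 (0.66), DNAJC7, which binds both Hsp70 and Hsp90 (-0.52), and FLCN (0.36). The paralog of the endoplasmic reticulum, HSP90B1, stood at -0.089 with manassantin, -0.22 with rotenone and -0.16 with digoxin, and the mitochondrial paralog TRAP1 at 0.021, -0.078 and 0.021; none of these was called.

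Chaperones known as HSF1 targets outside the machine were measured for 15 of 19 listed genes. With digoxin 10 were lower and 3 higher, with a median of -0.36, where 26.9% of all genes were called lower and 28% higher. SERPINH1, the collagen chaperone HSP47, stood at -0.59 (adjusted p = 3.656e-06) and HSPH1, an exchange factor of Hsp70, at -0.56 (adjusted p = 4.319e-06), after the small heat shock protein HSPB1 (-0.78) and the J-domain protein DNAJA1 (-0.75). The 3 called higher were HSPA4L (0.55), HSPA4 (0.39) and CRYAB (0.36). HSPA1L, called lower (-0.36, adjusted p = 0.0459), had digoxin arrays that overlapped with those of DMSO. CRYAB and HSPA1L were dim, at the 25.5 and 29.8 percentiles of genes. In the same arrays HSF1 and 2 of its 3 measured relatives and partners were higher: HSF2BP, which binds HSF2, by 0.40 (adjusted p = 0.00253) and HSBP1, a small protein that binds heat shock factors, by 0.27 (adjusted p = 0.000176). HSF2 was not analysed here. With rotenone 1 of the 15 targets was higher, the J-domain protein DNAJB4 (0.32, adjusted p = 0.0249), with a median of 0.12, where 3.55% of all genes were called higher. With manassantin limma called 0, where it called 0.97% of all genes. An unadjusted p under 0.05 was found for 1, as for 1896 of all 11963 genes, and the median was -0.015. Between manassantin and rotenone 4 were lower with manassantin and 0 higher, with a median of -0.11, where 3.78% of all genes were called lower. Of the 17 target genes with promoter windows, 5 held the 3-unit element.

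Transcripts of Hsp90 clients were measured for 27 of 32 listed genes. With manassantin limma called 0 of them, where it called 0.97% of all genes. An unadjusted p under 0.05 was found for 4, as for 1896 of all 11963 genes. The median was -0.0088, with values from -0.27 to 0.22. Rotenone gave 1 higher and 1 lower, where 3.55% of all genes were called higher and 3.39% lower. They were, in that order, the mitotic kinase PLK1 (0.33, adjusted p = 0.0138) and the receptor EGFR (-0.19, adjusted p = 0.0321). Digoxin gave 12 higher and 7 lower, with a median of 0.16, where 28% of all genes were called higher and 26.9% lower. With arrays centred on their medians 16 were higher and 6 lower, against 42% and 22.4% of all genes. Those farthest from 0 were the inhibitor-of-kappa-B kinases IKBKB (-0.84, adjusted p = 9.13e-07) and CHUK (0.74, adjusted p = 5.933e-05), which moved in opposite directions, the insulin-like growth factor receptor IGF1R (0.72) and the glucocorticoid receptor NR3C1 (0.69, adjusted p = 1.545e-06).

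**Figure D4:**
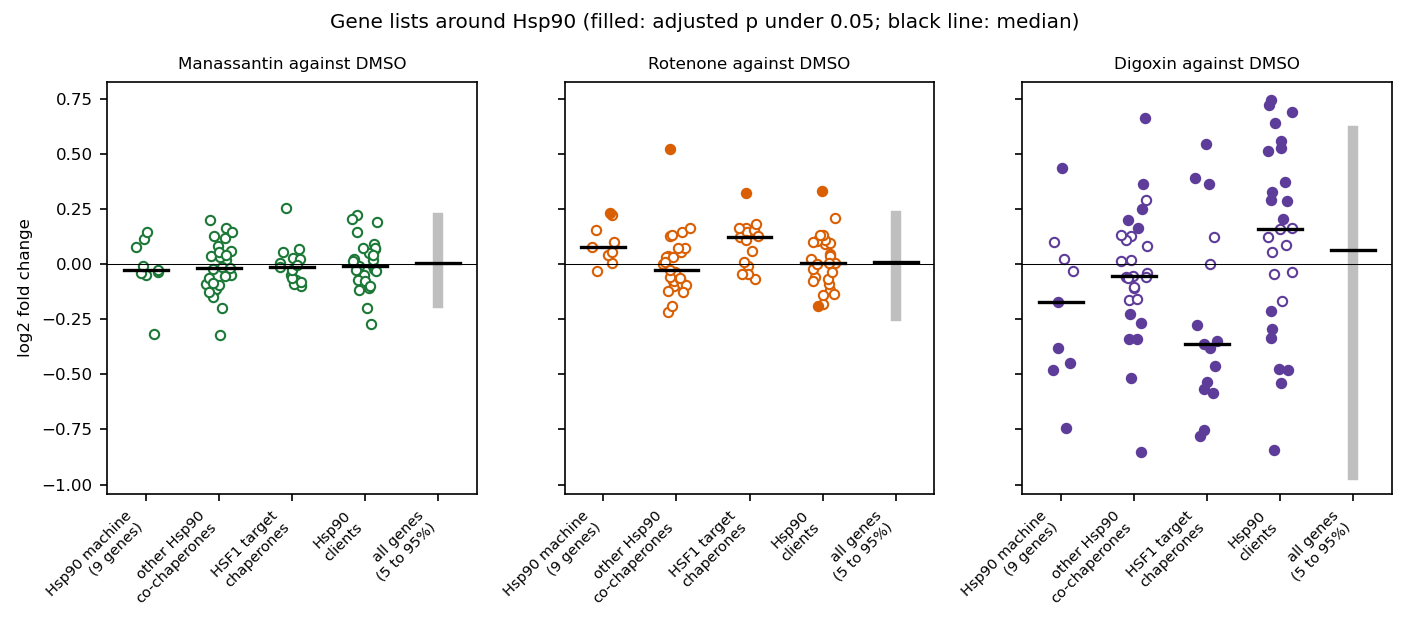
Log2 fold change against DMSO of the 9 Hsp90 machine genes, 27 other Hsp90 co-chaperones, 15 HSF1 target chaperones and 27 Hsp90 clients, 1 point per gene, filled at an adjusted p under 0.05; black lines are medians and the grey bar spans the 5th to 95th percentile of all genes. Points scatter near 0 for manassantin and rotenone, and with digoxin the HSF1 targets have the lowest median, -0.36, and the clients a median of 0.16.

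Likeness to other genes was measured as the root mean square distance between the 3 log2 fold changes against DMSO. Nearest to HSP90AA1 were ADGRG2 (0.00959), CEP76 (0.0101) and PLAAT1 (0.0158), and nearest to HSP90AB1 were TYW2 (0.0147), EGF (0.0211) and SRRT (0.0220). For HSF1 the nearest were DLGAP4 (0.0081), PAFAH1B2 (0.0146) and EDA (0.0147). The distances were longer for CHORDC1, whose nearest were SEMA5A (0.0400), GYG2 (0.0477) and DEFA6 (0.0519). All of these distances are smaller than the SE of a single difference, so they name the closest patterns and not an order among them.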

How the data were processed

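Per the labels, RNA of 12 samples was extracted, amplified, labelled with biotin and hybridised to 1 Affymetrix array each. The deposited values were probe set summaries read as log2 intensities from their range, 1.65 to 13.8; no source used here gives the authors' background correction or normalization. Of 22277 probe sets 62 were controls, 19064 carried 1 symbol, 1043 several and 2108 none, by the platform annotation. Each of 11963 genes was represented by its brightest probe set with 1 symbol. limma 3.58.1 in R 4.3.3 (lmFit, eBayes) was fitted to all 12 arrays on group alone (8 residual and 3.68 prior degrees of freedom), with Benjamini-Hochberg adjustment over all genes. The number of arrays limits the precision. No filter on dim genes was used.

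The members and gene lists were chosen with earlier results of these data known. From each list the up to 4 called genes with the largest difference against DMSO are named, with HSF2, HSP90B1 and TRAP1 in any case, and for 4 members the 3 genes nearest in pattern. The HSF1 targets called higher with digoxin, and HSPA1L, are named beside these. Replicate numbers are in the titles. Deviations from group means of same-numbered manassantin and rotenone arrays correlated at 0.107 to 0.362, each over 0.1, so for that comparison the numbers met the criterion for pairing. The p-values given for that comparison come from the fit on group alone, which does not use the pairing. Alternatives were a replicate block, the 18S covariate, median centring, quantile normalization, array weights, a trended robust prior, dim genes left out, probe sets averaged per gene or all tested, the 2 compared groups alone, and each array left out. Figures used Python 3.11.15 and matplotlib 3.10.9.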

Additional observations from a re-analysis of the deposited data

How the results depend on the processing

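Over the 16 alternatives no called direction was reversed for any of the 9 genes. For manassantin against DMSO, where 0 genes were called as reported, 1 was called with dim genes left out, 1 with the trended robust prior and 1 with array weights, CHORDC1 each time. For rotenone against DMSO, 1 as reported, the count was 2 with dim genes left out, 3 with the trended robust prior, 2 with array weights, 0 with the mean of probe sets, 0 with the 18S covariate and 0 to 1 without 1 array. For manassantin against rotenone it was 2 as reported, 3 with dim genes left out, with the trended robust prior and with array weights, HSP90AB1 being the one gained each time, 1 with the mean of probe sets and 1 to 2 without 1 array; for digoxin against DMSO it stayed at 5 to 6. Counts over all genes moved more: 0.0251% to 6.84% were called for manassantin against DMSO, from the 18S covariate to dim genes left out.

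With the replicate number as a block, 0, 1 and 6 genes of the machine were called for manassantin, rotenone and digoxin against DMSO, 2 for manassantin against rotenone, 8 for manassantin against digoxin and 7 for rotenone against digoxin, the same numbers as without it, and 2.43% of all genes in place of 0.97% for manassantin against DMSO. Over all 18 same-numbered pairs of arrays 8 correlated over 0.1 (-0.035 to 0.362). Only manassantin and rotenone met the criterion for pairing, with every same-numbered pair over 0.1. Some of the 8 lay outside that comparison, such as DMSO 3 with rotenone 3 (0.185). The share of all genes called rose with the block in every comparison, such as from 6.94% to 9.04% for rotenone against DMSO. For manassantin against rotenone it rose from 8.47% to 11.3%. Whether equal numbers mark samples handled together was not tested.

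Limits are 3 arrays per group, 1 probe set for CDC37, PTGES3 and CHORDC1, and unstated doses. Where an 18S covariate or a left-out array ended a call, the cause was not tested. Counts of the listed genes with few calls also moved with dim genes left out: clients with manassantin 1 higher and 1 lower, co-chaperones with rotenone 2 higher and 1 lower. In that setting 6.84% of all genes were called with manassantin and 18.1% with rotenone.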
